A study of Mus musculus with 16 samples.

Results

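The interferon-stimulated genes described here are 43 genes named as a group, and all 43 were found by exact name among the 34832 gene names of a mouse expression array. Where a gene had several probes, 62 in all for the group, the brightest probe over all 16 arrays stood for it. All 43 passed the filter on dim probes and were among the 25433 genes tested. The arrays, 1-colour Agilent arrays, measured RNA from primary type II alveolar epithelial cells, known as the makers of lung surfactant, of C57BL/6 mice. There were 4 arrays in each of 4 groups: cells in hyperoxia (85% O2) for 6 h, in normoxia (21% O2) for 6 h, in hyperoxia for 24 h and in normoxia for 24 h. The labels give no genotype, age or further treatment. Nothing states that the 4 replicates of a group came from separate animals or cultures, so p-values measure the spread between these samples, which may be technical.

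Interferons are secreted proteins that cells release on sensing viral or displaced nucleic acid. Type I and type III interferons act through receptors and Janus kinases to assemble ISGF3, a complex with STAT2 and IRF9 that binds the interferon-stimulated response element (ISRE) in promoters. Interferon gamma acts mainly through another promoter element, the gamma-activated site (GAS). The genes switched on include antiviral effectors, the sensors that detect viral RNA and DNA, and the factors that amplify or end the response, and alveolar epithelial cells are known to use them against respiratory viruses.

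Promoter sequence, 250 bases before and 50 after the start site, was taken from RefSeq for GRCm38.p6, and 32 of the 43 genes matched an entry. The promoters below belong to the 6 genes with the largest changes at 24 h among those that passed the test and had an entry, so that promoters of genes that rose can be read beside those of genes that fell. Capitals mark matches to the ISRE core GAAA, any 2 bases, GAAA on either strand, overlaps included, or to the GAS letters TTCNNNGAA, which read the same on both strands. Ifit1 and Ifit3 lie on the plus strand at chr19:34640639-34640938 and chr19:34583279-34583578, Samd9l on the minus strand at chr6:3399522-3399821, and Herc6, Oasl1 and the first of 3 Isg20 promoters on the plus strand at chr6:57580742-57581041, chr5:114922990-114923289 and chr7:78913174-78913473.
Ifit1: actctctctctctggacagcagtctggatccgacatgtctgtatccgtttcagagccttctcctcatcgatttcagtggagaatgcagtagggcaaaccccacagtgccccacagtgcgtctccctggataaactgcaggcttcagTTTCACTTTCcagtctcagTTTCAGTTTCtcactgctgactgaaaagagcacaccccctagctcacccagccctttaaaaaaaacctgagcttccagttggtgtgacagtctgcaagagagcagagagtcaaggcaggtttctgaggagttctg
Ifit3: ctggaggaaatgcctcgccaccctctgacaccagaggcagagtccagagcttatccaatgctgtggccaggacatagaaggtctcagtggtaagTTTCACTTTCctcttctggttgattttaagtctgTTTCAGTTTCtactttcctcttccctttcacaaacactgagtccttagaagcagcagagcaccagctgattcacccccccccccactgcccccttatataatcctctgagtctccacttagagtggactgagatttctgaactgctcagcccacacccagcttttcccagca
Samd9l: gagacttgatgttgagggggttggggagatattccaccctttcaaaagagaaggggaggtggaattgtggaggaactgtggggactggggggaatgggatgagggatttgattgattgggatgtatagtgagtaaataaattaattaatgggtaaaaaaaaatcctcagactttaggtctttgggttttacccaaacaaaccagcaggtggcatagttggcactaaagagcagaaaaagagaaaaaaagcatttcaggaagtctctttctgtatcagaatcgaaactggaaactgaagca
Herc6: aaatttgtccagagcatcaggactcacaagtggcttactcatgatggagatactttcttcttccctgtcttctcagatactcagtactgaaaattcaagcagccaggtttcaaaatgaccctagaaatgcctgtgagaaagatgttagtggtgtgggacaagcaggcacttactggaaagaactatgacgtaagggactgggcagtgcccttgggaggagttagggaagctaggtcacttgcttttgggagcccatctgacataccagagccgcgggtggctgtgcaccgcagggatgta
Oasl1: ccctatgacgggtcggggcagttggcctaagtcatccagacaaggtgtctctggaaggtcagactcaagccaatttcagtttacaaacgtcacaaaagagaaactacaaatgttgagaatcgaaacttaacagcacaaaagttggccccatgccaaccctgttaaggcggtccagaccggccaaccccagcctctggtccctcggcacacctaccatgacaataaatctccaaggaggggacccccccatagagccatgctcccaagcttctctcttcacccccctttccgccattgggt
Isg20: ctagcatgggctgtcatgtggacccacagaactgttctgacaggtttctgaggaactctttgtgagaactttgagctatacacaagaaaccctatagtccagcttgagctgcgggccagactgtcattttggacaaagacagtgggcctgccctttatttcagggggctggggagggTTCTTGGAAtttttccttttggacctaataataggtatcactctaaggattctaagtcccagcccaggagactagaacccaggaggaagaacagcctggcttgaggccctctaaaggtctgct

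The Ifit1 window holds 2 ISRE cores, from -104 to -95 and from -85 to -76 counted from the start site as 0. In the Ifit3 window there are also 2, from -156 to -147 and from -122 to -113. The Samd9l, Herc6 and Oasl1 windows hold neither set of letters, and the Isg20 promoter shown holds 1 GAS match from -73 to -65. Over all 32 genes with an entry, 15 (46.9%) had an ISRE core in at least 1 promoter, against 3.99% of 27025 genes in the RefSeq table and 3.44% of its 32851 promoters. A GAS match was present in 9 of 32 (28.1%), against 9.55% of genes and 8.3% of promoters. A match describes letters in this window only.

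In these cells 24 h of hyperoxia moved interferon-stimulated genes in both directions. Relative to normoxia at 24 h, 8 genes rose (Mx2, Ifit1, Ifit3, Rtp4, Samd9l, Irgm1, Eif2ak2 and Irf9), 5 fell (Herc6, Oasl1, Tor3a, Parp9 and Isg20) and 30 did not pass the test. The 13 genes that passed are 30.2% of the 43, close to the share of all 25433 genes that passed, 28.3. By direction, 18.6% of the group rose and 11.6% fell, beside 15.5 and 12.8 percent of all genes. The median log2 fold change over the 43 genes was 0.09, beside 0.01 over all genes, with a range of -0.69 to 1.48. Positive values were found for 26 of the 43 (60.5%), beside 50.7 percent of all genes. An unadjusted p under 0.05 was reached by 16 of the 43 (37.2%), beside 38 percent of all genes. After 6 h of hyperoxia none of the 43 passed the test in either direction. A test was passed at an adjusted p under 0.05 in limma, with Benjamini-Hochberg adjustment over all genes tested.

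**Figure D1:**
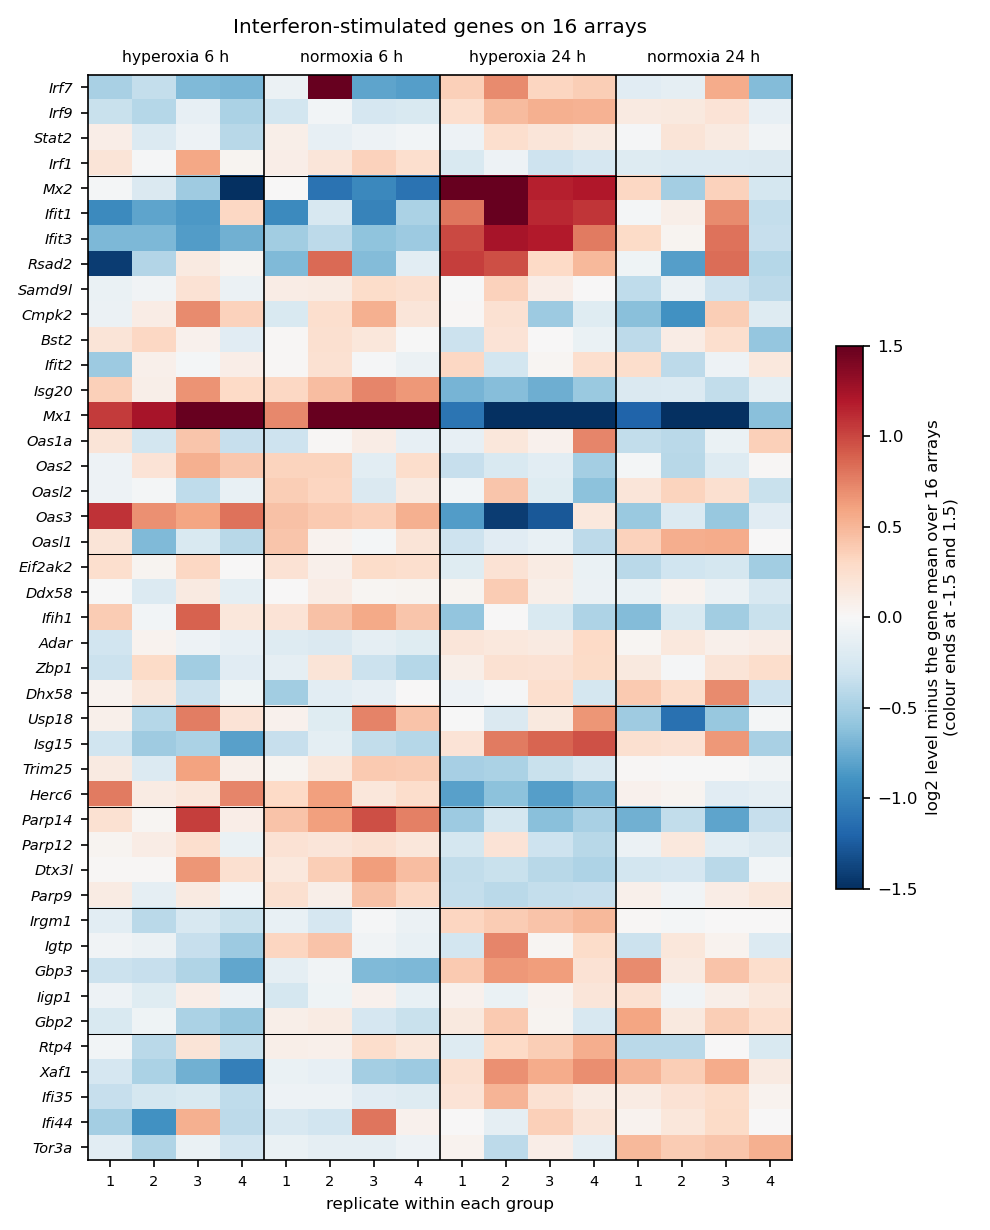
Level of each of the 43 genes (down the page, by role) on each of the 16 arrays (across, 4 replicates per group), as log2 level minus the gene's mean over all arrays, with colour ending at -1.5 and 1.5. Mx2, Ifit1 and Ifit3 were highest in hyperoxia at 24 h, while Mx1 averaged -6.32 and -5.64 in hyperoxia and normoxia at 24 h, against -2.57 and -2.63 at 6 h on the log2 scale before that mean is taken off.

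Levels are given as log2 processed signal less the 75th percentile of the same array, so 0 marks a probe as bright as that percentile, and levels of different probes are not compared. The 75th percentile lay between 899 and 1021 intensity units at 6 h and between 556 and 801 at 24 h. The share of probes well above background was 53.7% on normoxia 24 h replicate 3, the lowest, and at most 69.0%. Of the 43 genes, 37 were well above background on all 16 arrays, and the exceptions were Mx1 (10 arrays), Mx2 (4), Oas2 (15), Oas3 (6), Rsad2 (6) and Cmpk2 (12). Each time had a slide of its own, and time and slide cannot be told apart. The gases occupied separate rows of each slide, hyperoxia in row 2 and normoxia in row 1, and oxygen and row cannot be told apart either.

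The type II label was set against the cells' own markers. Sftpb, Sftpc, Sftpd, Abca3 and Lamp3 were well above background on 16 of 16 arrays, Sftpa1 on 14, and Slc34a2, a phosphate transporter of type II cells, on 0. The summed level of the type II list was 57.7 to 74.97 in hyperoxia at 24 h and 61.2 to 70.7 in normoxia at 24 h, against 110 to 159 and 99.8 to 129 in the same gases at 6 h, in multiples of the 75th percentile. Of 9 tested type II markers at 24 h, Abca3 and Ctsh rose (log2 fold changes 0.68 and 0.44) and Lamp3, Sftpb and Etv5 fell (-1.03, -0.95 and -0.79). Fibroblast and smooth muscle markers were bright, Col1a2 at 7.56 to 9.01 and Tagln at 8.09 to 8.94 on the log2 scale over 16 arrays. Their list had sums of 1453 to 1558 in hyperoxia and 1559 to 1793 in normoxia at 24 h, and 0 of 7 passed the test between gases. At 6 h these sums were 862 to 1136 and 914 to 1089 in the same gases. Macrophage and monocyte markers summed to 27.8 to 39.4 in hyperoxia and 28.4 to 33.3 in normoxia at 6 h. At 24 h they summed to 70.9 to 78.5 in hyperoxia and 57.6 to 73.2 in normoxia. Such sums follow the brightest probes and are not compared between lists. Here the brightest was Itgam, at 4.05 to 6.13 on the log2 scale over 16 arrays. Over time 2 of 9 tested genes rose and 3 fell in hyperoxia (median log2 fold change -0.27), beside 25 and 27.4 percent of all genes. In normoxia 1 rose and 3 fell (median -0.14), beside 20.6 and 23.5 percent. Of the 9 genes Cd68 alone passed between gases at 24 h (log2 fold change 1.02, adjusted p 1.5e-06). Among lymphocyte and plasmacytoid dendritic cell markers 0 of 9 passed, among neutrophil markers 1 of 5 (S100a8, 1.75), among endothelial markers 1 of 5 (Egfl7, -0.31) and among club and ciliated cell markers 1 of 3 (Scgb1a1, 0.78). Over all genes 28.3 percent passed between gases at 24 h. The part of these cells in the results below was not tested, and in RNA of a cell population fewer expressing cells and less RNA per cell cannot be told apart.

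At 6 h the log2 fold changes of the 43 genes, hyperoxia over normoxia, ran from -0.75 (Irf7) to 0.36 (Oas3, well above background on 4 and 2 of 4 arrays), with a median of -0.12 beside 0.01 over all genes. The Irf7 value rests on normoxia 6 h replicate 2 and was 0.03 without it. Of the group, 11 were positive and 32 (74.4%) negative, against 46.2% negative over all genes. None of the 43 passed, beside 0.326 percent of all genes (0.236 higher and 0.0904 lower), and 3 had an unadjusted p under 0.05 in limma (Parp9, Oasl1 and Irgm1, all lower), beside 7.38 percent of all genes. Their log2 fold changes were -0.25, -0.43 and -0.17, with adjusted p-values of 0.39, 0.52 and 0.55. The groups did not overlap for Oas3, higher in hyperoxia, where 2.31 percent of all genes were above in this way. Ifit3 and Ifi35 were lower in hyperoxia without overlap, where 2 percent of all genes were. The 95% interval of the 6 h log2 fold change was -0.53 to 0.72 for Ifit1 and -0.66 to 0.24 for Isg15. When limma weighted the arrays by their quality, 1 of the 43 genes passed at 6 h (Parp9, lower), beside 2.23 percent of all genes.

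**Figure D2:**
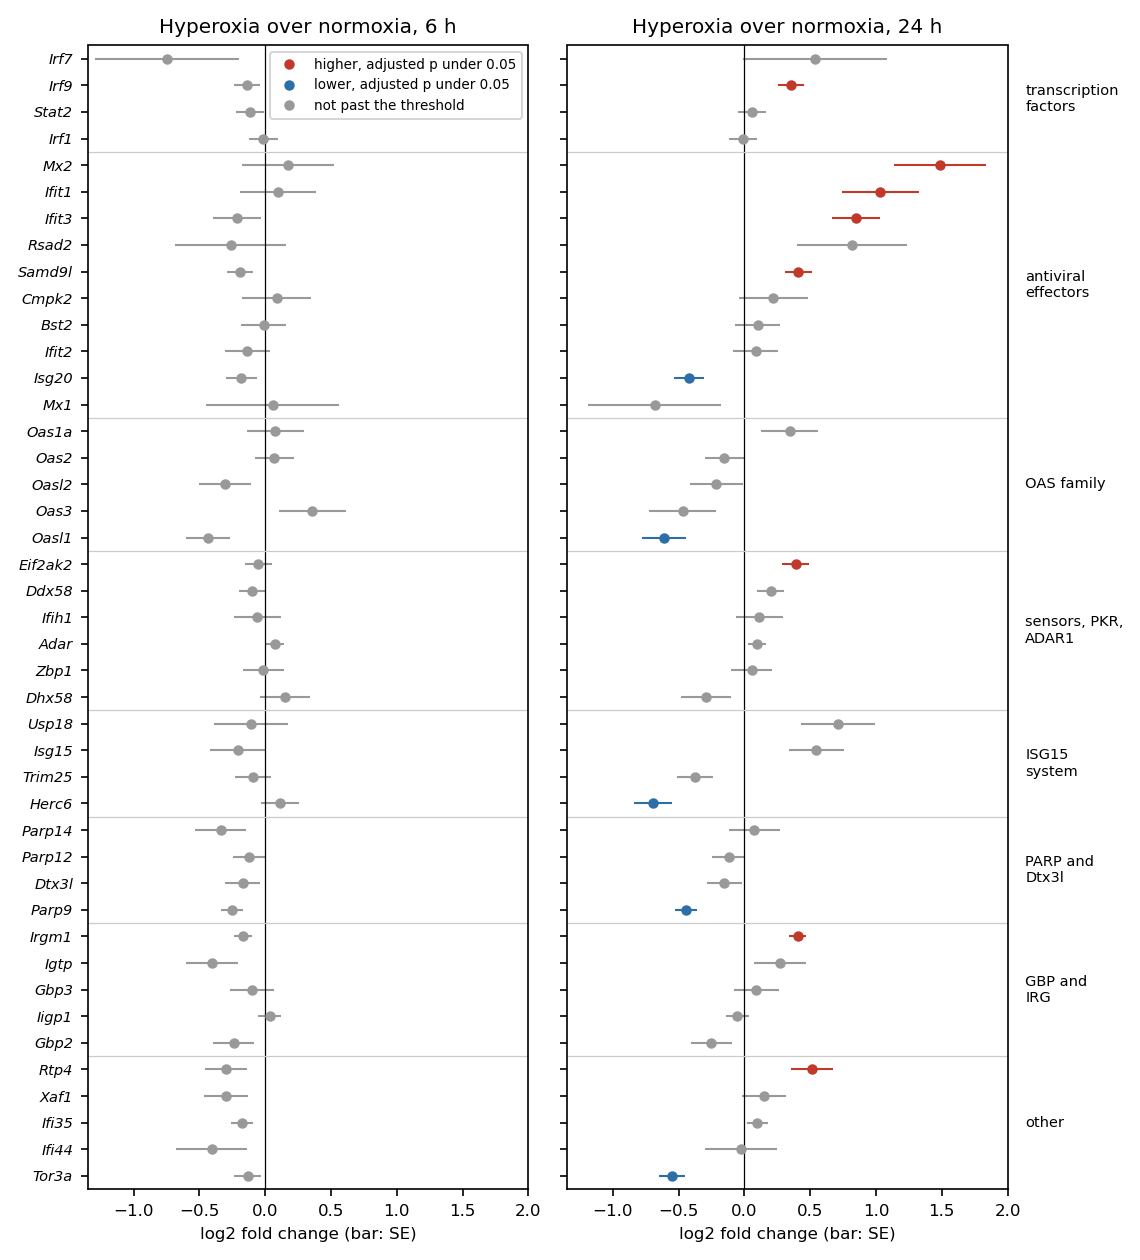
Log2 fold change of hyperoxia over normoxia (across, with its standard error) for the 43 genes (down the page, grouped by role) at 6 h (left) and 24 h (right). At 6 h 0 genes passed the test, and at 24 h 8 passed as higher (red) and 5 as lower (blue), while Mx2 at 6 h and Oas3 at 24 h were well above background on 0 arrays of either gas and their points there are not read as folds.

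Counts by role at 24 h, here and below, stand beside 15.5 percent higher and 12.8 percent lower of all genes. Among the 4 transcription factors, Irf9 rose and Irf1, Irf7 and Stat2 did not pass. Irf9, the DNA-binding subunit of ISGF3, had levels of 1.27, 1.48, 1.55 and 1.53 in hyperoxia at 24 h, against 1.14, 1.16, 1.22 and 0.88 in normoxia at 24 h. Every hyperoxia array was above every normoxia array. The log2 fold change was 0.36 (SE 0.10, adjusted p 0.014), a 1.28-fold rise. Stat2, its partner in ISGF3, averaged 0.51 ± 0.14 in hyperoxia and 0.45 ± 0.12 in normoxia at 24 h (SD, n = 4 each). Irf1, a factor induced by interferon gamma, averaged 3.05 ± 0.10 and 3.06 ± 0.01 in the same groups, a log2 fold change of -0.01.

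Irf7, which amplifies the type I response, had levels of -3.00, -2.64, -3.03 and -2.99 in hyperoxia at 24 h, against -3.52, -3.48, -2.80 and -4.00 in normoxia at 24 h. Normoxia replicate 3 lay inside the hyperoxia range, and the log2 fold change of 0.53 did not pass (SE 0.55, adjusted p 0.52). The error is pooled over all 4 groups, and at 6 h normoxia replicate 2 had a level of -0.83, with the other normoxia arrays at -4.18 to -3.45.

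Antiviral effectors made up the largest role, with 4 of 10 higher and 1 lower at 24 h, beside 15.5 and 12.8 percent of all genes. Mx2, a dynamin-like GTPase, had levels of -3.83, -4.10, -4.51 and -4.48 in hyperoxia at 24 h, against -5.37, -6.19, -5.34 and -5.95 in normoxia at 24 h. It was well above background on 4 of 4 hyperoxia arrays at 24 h and on none of the other 12 arrays. The measured level was 2.80-fold higher in hyperoxia than in normoxia at 24 h (adjusted p 0.0051), with normoxia at background. The size depends on the background correction: after normexp correction and quantile normalization the log2 fold change was 0.41 (adjusted p 0.0005), against 1.48 here. The measured means were -4.23 ± 0.33 in hyperoxia and -5.71 ± 0.42 in normoxia (SD, n = 4 each). Where a fold is given below as at least a value, the brighter group's mean is set against the dimmer arrays. Each of those arrays counts as its lowest signal well above background, or the probe's own signal where that is higher. Such a value holds for this background correction only.

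Ifit1 and Ifit3 encode RNA-binding proteins that act together against viral RNA, and the genes lie near each other on chromosome 19. Ifit1 had levels of -3.40, -2.65, -3.07 and -3.13 in hyperoxia at 24 h, against -4.23, -4.11, -3.49 and -4.56 in normoxia at 24 h. The lowest hyperoxia array was just above the highest normoxia array, replicate 3. The log2 fold change was 1.03 (SE 0.29, adjusted p 0.015), a 2.05-fold rise. After normexp correction and quantile normalization it was 0.50 (adjusted p 0.0052).

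Ifit3 had levels of -2.05, -1.81, -1.85 and -2.26 in hyperoxia at 24 h, against -2.76, -3.01, -2.22 and -3.39 in normoxia at 24 h. The groups touched, because normoxia replicate 3 was slightly above hyperoxia replicate 4. The log2 fold change was 0.85 (SE 0.18, adjusted p 0.0026), and it was 1.05 (adjusted p 7.37e-05) without normoxia 24 h replicate 3 and 0.56 (adjusted p 0.0015) after normexp correction and quantile normalization. Ifit2, the third member of this family in the group, averaged -2.69 ± 0.27 in hyperoxia and -2.78 ± 0.29 in normoxia at 24 h and did not pass (log2 fold change 0.09, adjusted p 0.76).

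Samd9l, an interferon-inducible restriction factor for poxviruses, had levels of 1.80, 2.15, 1.91 and 1.81 in hyperoxia at 24 h, against 1.42, 1.71, 1.49 and 1.40 in normoxia at 24 h. All 4 hyperoxia arrays were above the normoxia arrays, with a log2 fold change of 0.41 (SE 0.10, adjusted p 0.0059). A second probe gave 0.41 as well (adjusted p 0.034 with every probe tested on its own).

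Isg20, an exonuclease that degrades viral RNA, moved the other way. Its levels were 1.76, 1.82, 1.73 and 1.90 in hyperoxia at 24 h, against 2.25, 2.25, 2.09 and 2.31 in normoxia at 24 h. No hyperoxia array reached the normoxia range, and the log2 fold change was -0.42 (SE 0.12, adjusted p 0.013). Its second probe gave -0.45 (adjusted p 0.0079).

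The other 5 effectors did not pass at 24 h. Rsad2, which encodes the antiviral enzyme viperin, averaged -4.72 ± 0.36 in hyperoxia and -5.54 ± 0.71 in normoxia. It was well above background on 3 and 0 of 4 arrays, and its measured value, 1.76-fold, missed the threshold (adjusted p 0.17). Normexp correction with quantile normalization gave Rsad2 a log2 fold change of 0.18, against 0.82 here. Cmpk2, a nucleotide kinase gene beside Rsad2 on chromosome 12, had a log2 fold change of 0.22 (adjusted p 0.59). Bst2, which tethers budding virions to the cell surface, had one of 0.10 (adjusted p 0.71). Mx1, a nuclear relative of Mx2 for which C57BL/6 mice are known to carry a defective allele, reached well above background on 1 array of 4 in each gas at 24 h, so no fold is given.

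In the OAS family, whose enzymes make oligoadenylates on sensing double-stranded RNA, 0 of 5 rose and Oasl1 fell. Oasl1, which in mice restrains translation of the Irf7 message and makes no oligoadenylate, had levels of 1.22, 1.36, 1.41 and 1.13 in hyperoxia at 24 h, against 1.87, 2.07, 2.08 and 1.53 in normoxia at 24 h. The highest hyperoxia array was below the lowest normoxia array, and the log2 fold change was -0.61 (SE 0.17, adjusted p 0.013), a 1.52-fold fall. At 6 h its log2 fold change was -0.43 without passing. Oas1a had a log2 fold change of 0.35, Oas2 of -0.15 and Oasl2 of -0.21 at 24 h, with adjusted p-values of 0.27, 0.49 and 0.48. Oas3 was not well above background on any 24 h array, so no fold is given.

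Of the 6 nucleic acid sensors and RNA enzymes, 1 rose and 0 fell. Eif2ak2 encodes PKR, a kinase that halts translation on binding double-stranded RNA. Its levels were -0.26, 0.14, 0.05 and -0.17 in hyperoxia at 24 h, against -0.48, -0.38, -0.34 and -0.60 in normoxia at 24 h. The groups did not overlap, and the log2 fold change was 0.39 (SE 0.10, adjusted p 0.0089). Its level in hyperoxia at 24 h, -0.06 ± 0.19, was nearer to the 6 h levels (0.08 ± 0.15 in hyperoxia and 0.13 ± 0.09 in normoxia) than the normoxia level at 24 h was (-0.45 ± 0.12).

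Ddx58 (RIG-I), Ifih1 (MDA5), Adar (ADAR1, which edits double-stranded RNA), Zbp1 and Dhx58 (LGP2) did not pass. Their log2 fold changes at 24 h ran from -0.29 for Dhx58 to 0.20 for Ddx58.

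The ISG15 system attaches a ubiquitin-like protein to other proteins, and 1 of its 4 genes passed, as lower. Herc6, known in mice as the main ligase for Isg15, had levels of -3.60, -3.40, -3.61 and -3.49 in hyperoxia at 24 h, against -2.71, -2.74, -2.95 and -2.91 in normoxia at 24 h. The hyperoxia arrays lay well below the normoxia arrays, with a log2 fold change of -0.69 (SE 0.15, adjusted p 0.0024), a 1.62-fold fall, and -0.40 (adjusted p 0.0058) after normexp correction and quantile normalization. A second probe also gave -0.69 (adjusted p 0.00017).

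Isg15 itself had levels of 1.52, 2.09, 2.18 and 2.27 in hyperoxia at 24 h, against 1.56, 1.53, 1.96 and 0.82 in normoxia at 24 h. The groups overlapped through hyperoxia replicate 1 and normoxia replicate 3, and the log2 fold change of 0.55 did not pass (SE 0.21, adjusted p 0.066). Leaving out single arrays gave 0.33 (adjusted p 0.19, without normoxia 24 h replicate 4) to 0.71, and it passed only without normoxia 24 h replicate 3 or without hyperoxia 24 h replicate 1 (0.71 and adjusted p 0.019 in each case). A second, dimmer probe of Isg15 gave 0.65 and just missed the threshold (adjusted p 0.0501 with every probe tested on its own).

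Usp18, which removes Isg15 and dampens receptor signalling, had levels of 0.36, 0.15, 0.51 and 1.04 in hyperoxia at 24 h, against -0.17, -0.75, -0.20 and 0.34 in normoxia at 24 h. Within each replicate number the hyperoxia array was the higher, but the groups overlapped and the log2 fold change of 0.71 did not pass (SE 0.28, adjusted p 0.077). With the replicate number as a block within each time it passed (adjusted p 0.00024), as it did without normoxia 24 h replicate 4 (0.89, adjusted p 0.037). The other omissions did not pass, the lowest being 0.52 without normoxia 24 h replicate 2 and 0.54 without hyperoxia 24 h replicate 4 (adjusted p 0.21 each).

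Trim25, a ligase for Isg15 and for RIG-I, had levels of 3.77, 3.79, 3.92 and 4.02 in hyperoxia at 24 h, against 4.28, 4.26, 4.25 and 4.21 in normoxia at 24 h. The groups did not overlap, yet the log2 fold change of -0.37 missed the threshold (SE 0.14, adjusted p 0.054). Trim25 passed in 7 of 18 alternatives, but on no omission of a single array. Among the 7 were the replicate block within each time (adjusted p 0.029) and the authors' table (adjusted p 0.044). Its second probe gave 0.01, so its probes disagree. With the block, 15 of the 43 genes passed at 24 h (the 13 named first, Trim25 and Usp18), beside 33.4 percent of all genes in that fit.

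Of the poly(ADP-ribose) polymerase genes and Dtx3l, Parp9 fell and the other 3 did not pass. Parp9, which pairs with the ubiquitin ligase Dtx3l, had levels of 0.59, 0.53, 0.58 and 0.60 in hyperoxia at 24 h, against 1.02, 0.89, 1.05 and 1.12 in normoxia at 24 h. The 4 hyperoxia arrays were tightly grouped below the normoxia arrays, with a log2 fold change of -0.45 (SE 0.08, adjusted p 0.00088). A second, dim probe gave -0.34 without passing, and with all probes of a gene averaged Parp9 was lost (adjusted p 0.12). Dtx3l, which neighbours Parp9 on chromosome 16, had a log2 fold change of -0.15, Parp12 of -0.12 and Parp14 of 0.08, with adjusted p-values of 0.45, 0.52 and 0.82.

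Guanylate-binding proteins and immunity-related GTPases attack the vacuoles of intracellular pathogens. Irgm1, a regulator of the other immunity-related GTPases, was the only one of these 5 genes to pass at 24 h. It had levels of 3.21, 3.27, 3.32 and 3.37 in hyperoxia at 24 h, against 2.91, 2.85, 2.89 and 2.90 in normoxia at 24 h. The groups were separated by more than the spread within either, with a log2 fold change of 0.40 (SE 0.07, adjusted p 0.00036), and a second probe gave 0.53 (adjusted p 0.0019). Igtp, Gbp3, Iigp1 and Gbp2 had log2 fold changes of 0.27, 0.09, -0.05 and -0.25.

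Of the 5 genes outside these roles, Rtp4 rose and Tor3a fell. Rtp4, a chaperone for receptor transport to the cell surface, had levels of -0.55, -0.07, 0.01 and 0.19 in hyperoxia at 24 h, against -0.77, -0.77, -0.35 and -0.59 in normoxia at 24 h. Hyperoxia replicate 1 lay within the normoxia range, and the log2 fold change was 0.52 (SE 0.16, adjusted p 0.024). The call was lost when normoxia 24 h replicate 1 or 2 or hyperoxia 24 h replicate 2, 3 or 4 was left out, with adjusted p-values of 0.067, 0.066, 0.053, 0.065 and 0.078.

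Tor3a, a torsin-family ATPase of the endoplasmic reticulum, had levels of 0.60, 0.15, 0.64 and 0.40 in hyperoxia at 24 h, against 1.03, 0.92, 0.96 and 1.08 in normoxia at 24 h. All hyperoxia arrays were below the normoxia arrays, with a log2 fold change of -0.55 (SE 0.10, adjusted p 0.00078), and a second probe gave -0.52 (adjusted p 0.0028). Xaf1, Ifi35 and Ifi44 had log2 fold changes of 0.15, 0.10 and -0.03 and did not pass.

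**Figure D3:**
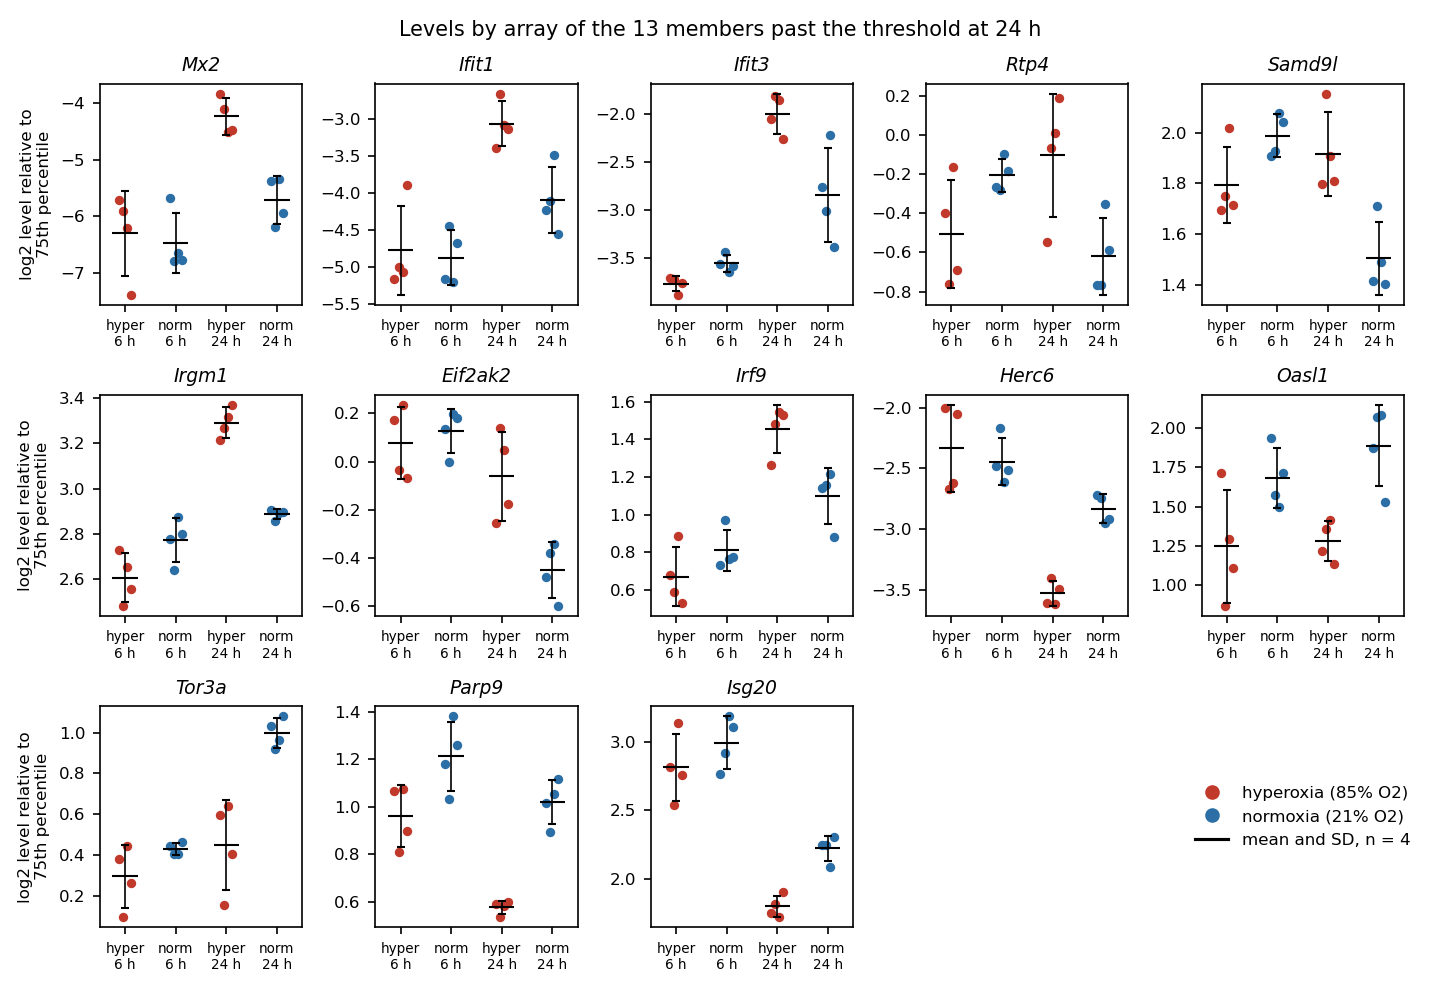
Level on each array (points) with mean and SD (n = 4) for the 13 genes that passed at 24 h, in hyperoxia (red) and normoxia (blue) at 6 h and 24 h, as log2 relative to the array's 75th percentile. Groups at 24 h did not overlap for 11 of the 13, the exceptions being Ifit3 and Rtp4, where a normoxia array reached into the hyperoxia range.

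Counted over all 43 genes at 24 h, the groups did not overlap for 6 with hyperoxia above and 6 with hyperoxia below, beside 17.9 and 15.3 percent of all genes. The genes below are the 5 that fell and Trim25. Of the 14 genes with more than 1 tested probe, none had probes that passed in opposite directions, and 10 had the same sign on all tested probes at 24 h.

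Promoter letters were set beside these calls as a description. Of the 8 genes that rose, 6 had a RefSeq promoter and 4 of those (Ifit1, Ifit3, Irgm1 and Eif2ak2) held an ISRE core, while Irf9 and Samd9l did not. Of the 5 that fell, 3 had a promoter entry (Isg20, Oasl1 and Herc6) and 0 held one. Among the 30 that did not pass, 11 of 23 with an entry held one, among them Isg15, Rsad2 and Stat2. The genes with no entry are Mx1, Mx2, Oas2, Usp18, Zbp1, Parp9, Parp14, Tor3a, Rtp4, Dhx58 and Iigp1.

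**Figure D4:**
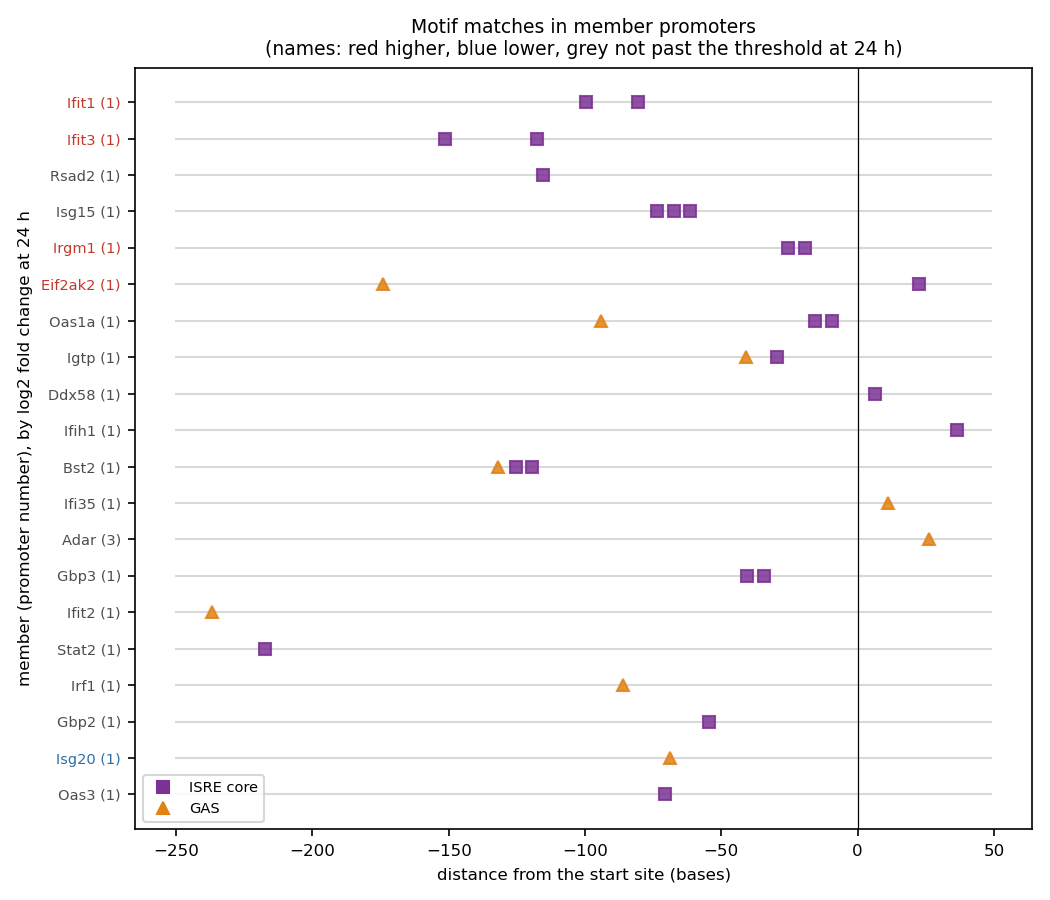
Position of each ISRE core (squares) and GAS match (triangles) relative to the start site, in bases, for the promoters that hold one, ordered by log2 fold change at 24 h. Ifit1 and Ifit3 each carry 2 ISRE cores upstream of the start site, and of the genes that fell Isg20 alone appears, with 1 GAS match.

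Whether the oxygen effect differed between 24 h and 6 h was tested as the difference of the log2 fold changes, 24 h less 6 h. The oxygen log2 fold change was more positive at 24 h for Ifit3, Rtp4, Samd9l, Irgm1 and Irf9 and more negative for Herc6. That is 6 genes or 13.95% of the group, beside 12.3 percent of all genes (higher 6.63, lower 5.63). An unadjusted p under 0.05 was reached by 14 genes (32.6%), beside 25.3 percent of all genes. Ifit3 had log2 fold changes of 0.85 at 24 h and -0.21 at 6 h, a difference of 1.06 (SE 0.26, adjusted p 0.014), and 0.67 (adjusted p 0.011) after normexp correction and quantile normalization. Irgm1 had 0.40 at 24 h and -0.17 at 6 h, a difference of 0.57 (SE 0.09, adjusted p 0.0012). Ifit3 and Irgm1 did not pass at 6 h, and their values there lay on the other side of 0.

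Samd9l had 0.41 at 24 h and -0.19 at 6 h, a difference of 0.60 (SE 0.14, adjusted p 0.011). A second Samd9l probe gave a difference of 0.59 that did not pass (adjusted p 0.060 with every probe tested on its own). For Herc6 the values were -0.69 and 0.11, a difference of -0.81 (SE 0.21, adjusted p 0.019; -0.49 after normexp correction and quantile normalization), but its second probe gave -0.31 (adjusted p 0.22), with -0.38 already at 6 h. The differences of Rtp4 (0.81, adjusted p 0.028) and Irf9 (0.50, adjusted p 0.031) were lost in 8 and 10 of 25 alternatives, 8 and 7 of them the omission of 1 of the 16 arrays. Leaving out hyperoxia 24 h replicate 3 or 4 or hyperoxia 6 h replicate 2 left 3 genes higher and 2 lower in each case. With the replicate block within each time, 8 genes were higher and 1 lower, Eif2ak2, Igtp, Mx2 and Usp18 being added and Irf9 lost, beside 16.5 percent of all genes in that fit. Isg15 did not pass for the difference (0.75, adjusted p 0.13 with every probe tested on its own). Its second, dimmer probe did (1.07, adjusted p 0.049 in that fit). The difference between times shares its arrays with both oxygen comparisons and with both comparisons over time.

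Over time, at 24 h against 6 h, the interferon-stimulated genes moved in both directions in either gas. In hyperoxia 15 rose and 11 fell, beside 25 and 27.4 percent of all genes, and in normoxia 9 rose and 12 fell, beside 20.6 and 23.5 percent. In either direction that is 60.5% of the group in hyperoxia, where 52.4 percent of all genes passed, and 48.8% in normoxia, where 44.2 percent did. An unadjusted p under 0.05 was reached by 28 genes in each gas, beside 58.2 percent of all genes in hyperoxia and 52.1 in normoxia. The 24 h arrays lay wholly above the 6 h arrays for 12 genes and wholly below for 10 in hyperoxia, beside 21.2 and 24.1 percent of all genes. In normoxia this was so for 7 and 13 genes, beside 21.9 and 22.2 percent. Those counts depend on the scaling: with each array centred on its median in place of its 75th percentile, 20 rose and 6 fell in hyperoxia and 17 rose and 7 fell in normoxia, where 58.6 and 53.1 percent of all genes passed. The median over all genes was then 0.20 and 0.19, against -0.02 in both gases with the 75th percentile, so the directions described next are of genes that passed under both scalings unless the sentence says otherwise. The hyperoxia 24 h arrays are also used in the oxygen comparison at 24 h, as are the normoxia 24 h arrays. Cell type markers moved between these times too. Of 9 tested type II markers 7 fell in hyperoxia, and in normoxia 6 fell and 1 rose. Of 7 fibroblast and smooth muscle markers 5 rose in each gas. The part of cell types in the changes over time was not tested.

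Ifit3 was higher at 24 h than at 6 h in hyperoxia, by 1.78 on the log2 scale (SE 0.18, adjusted p 2.8e-06), and in normoxia, by 0.71 (SE 0.18, adjusted p 0.0059). Gbp3, a guanylate-binding protein, was higher by 0.95 in hyperoxia and by 0.76 in normoxia (adjusted p 0.00037 and 0.0027). Isg20 fell by 1.01 in hyperoxia and by 0.77 in normoxia (adjusted p 8.2e-06 and 0.00017). Parp14 fell by 0.83 in hyperoxia and by 1.25 in normoxia (adjusted p 0.0029 and 0.00025). Each of these 4 genes thus moved in the same direction in both gases.

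Mx1 fell over time in both gases. In hyperoxia its levels were -5.38, -7.86, -6.22 and -5.81 at 24 h, against -3.24, -3.06, -2.13 and -1.85 at 6 h. In normoxia they were -5.49, -6.25, -5.90 and -4.92 at 24 h, against -3.57, -2.36, -2.52 and -2.05 at 6 h. No 24 h array reached the 6 h range, while 8 of 8 arrays at 6 h, and 1 of 4 in each gas at 24 h, had Mx1 well above background. The log2 fold changes were -3.75 in hyperoxia (SE 0.51, adjusted p 3.4e-05) and -3.01 in normoxia (SE 0.51, adjusted p 0.00037). With most 24 h arrays at background these sizes depend on the background correction, and normexp correction with quantile normalization gave -1.49 in hyperoxia and -1.36 in normoxia, both past the threshold.

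In all, 8 genes rose in both gases (Adar, Gbp2, Gbp3, Ifi35, Ifit1, Ifit3, Irf9 and Xaf1) and 8 fell in both (Dtx3l, Herc6, Ifih1, Irf1, Isg20, Mx1, Oas3 and Parp14). Under median centring Ifih1 and Irf1 were lost in hyperoxia, and Herc6, Irf1 and Oas3 in normoxia. With all probes of a gene averaged Xaf1 was lost in hyperoxia and in normoxia (adjusted p 0.083 and 0.057), and Ifih1 and Herc6 in normoxia. Normoxia calls of Herc6, Irf9 and Oas3, and the hyperoxia call of Gbp2 were lost after normexp correction and quantile normalization, the normoxia calls of Herc6 and Oas3 also with quantile normalization alone and in the authors' table. Leaving out 1 array of 8 in turn, the normoxia call was lost 7 times for Herc6, 6 for Ifit1 and for Irf9, 4 for Gbp2 and 1 for Oas3 (without normoxia 24 h replicate 3), and the hyperoxia call 5 times for Gbp2. Rtp4 alone passed in opposite directions, at 0.40 in hyperoxia and -0.41 in normoxia (adjusted p 0.046 and 0.047), and in normoxia it was lost under median centring, with a log2 fold change of -0.20. Its calls were also lost on leaving out 6 of 8 single arrays in hyperoxia and 7 of 8 in normoxia. Isg15 rose over time in hyperoxia by 1.23 (SE 0.21, adjusted p 0.00024), while its normoxia value of 0.48 did not pass (adjusted p 0.078) but did under median centring, with array weights and without normoxia 24 h replicate 4. Mx2, not well above background on any 6 h array, measured 4.21-fold higher at 24 h than at 6 h in hyperoxia (adjusted p 0.00022). Its log2 fold change was 0.58 after normexp correction and quantile normalization, against 2.07 here, and no fold is given in normoxia.

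Genes upstream in the pathway were read from further lists, whose counts at 24 h stand beside the same 15.5 percent higher and 12.8 percent lower of all genes. Of 16 interferon and receptor genes named on the array 11 were tested, and at 24 h 0 rose and Ifnar2, a subunit of the type I receptor, fell, averaging 2.56 ± 0.10 in hyperoxia and 2.83 ± 0.12 in normoxia (SD, n = 4 each; log2 fold change -0.27, adjusted p 0.046). Among the ligands were type I interferons (Ifna1, Ifna2, Ifna5 and Ifna12) and a type III interferon (Il28b). Their probes were well above background on 16 of 16 arrays, with log2 fold changes of -0.06 (Ifna12) to 0.09 (Ifna2) at 24 h that did not pass. The Ifna1 probe lay between -1.81 and -1.31 over the 16 arrays. Whether these probes detect the named genes alone was not tested. Ifnb1, Ifna4 and Ifne were well above background on 0 of 16 arrays, Ifng on 1 and Ifnk on 3. Ifnar1, the other type I receptor subunit, had a log2 fold change of -0.01 (adjusted p 0.98). None of the genes of this list or of the 3 described next passed at 6 h.

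Among 20 tested genes of interferon signalling and its control, 2 rose and 3 fell at 24 h. Pias1, an inhibitor of interferon signalling, averaged 2.01 ± 0.09 in hyperoxia and 1.56 ± 0.11 in normoxia (log2 fold change 0.45, adjusted p 0.00038), and Irf2, a repressor at ISRE sites, rose by 0.37 on the log2 scale (adjusted p 0.032). Uba7, the activating enzyme for Isg15, averaged -0.85 ± 0.15 in hyperoxia and -0.16 ± 0.09 in normoxia (log2 fold change -0.69, adjusted p 0.0043). Socs1, a feedback inhibitor of Janus kinases, fell by 0.54 (adjusted p 0.00044), and Jak2 fell by 0.38 (adjusted p 0.012).

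Of 20 tested sensor and adaptor genes, 3 rose and 3 fell at 24 h. Tbk1, the kinase that activates interferon regulatory factors, rose by 0.55 on the log2 scale (adjusted p 0.00027). Trex1, a DNase that removes displaced DNA, rose by 0.23 (adjusted p 0.035). The genes of all 3 subunits of RNase H2, which removes RNA paired with DNA, fell: Rnaseh2b by 0.38, Rnaseh2a by 0.37 and Rnaseh2c by 0.29 (adjusted p 0.0024, 0.00058 and 0.021).

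A list of 61 other tested genes known to respond to interferon held 10 that rose and 8 that fell at 24 h, close to the 15.5 and 12.8 percent of all genes that did. Tap1, which carries peptides to class I molecules, averaged -0.87 ± 0.28 in hyperoxia and -2.86 ± 0.26 in normoxia, a log2 fold change of 1.99 (adjusted p 2.4e-07). Cd274, the inhibitory ligand PD-L1, rose by 1.07 (adjusted p 8.2e-05), and Pml, the scaffold of nuclear bodies, by 0.86 (adjusted p 1.3e-07). Psmb8, a subunit of the immunoproteasome, fell by 0.96 (adjusted p 3.3e-05), and Slfn2 fell by 0.97 (adjusted p 0.017). Tnfsf10, the death ligand TRAIL, was well above background on 0 of 4 hyperoxia arrays and 2 of 4 normoxia arrays. It passed as lower in hyperoxia (adjusted p 0.025), at least 5.07-fold by the rule given for dim arrays. That value is not a firm lower limit, since only 2 of 4 normoxia arrays were well above background and the normoxia SD was 2.09.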

How the data were processed

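RNA of 16 samples was hybridised to 1-colour (Cy3) Agilent arrays. Signals were read with Agilent Feature Extraction 10.7.3.1, per the submitters' processing notes, and per the file headers the processed intensity of each spot is background-subtracted. A deposited series table holds the authors' log2 values of 43964 probes and served as an alternative.

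Control spots were left out, and spots of a probe averaged. A spot marked as an outlier was left out only where another spot of its probe remained, and 432 of 55681 probes had more than 1 spot. The log2 intensity less the array's 75th percentile was the level. The brightest probe stood for a gene, and genes whose probe did not stand well above background in any group, with 3 of its 4 arrays as the minimum, were dropped. limma 3.58.1 in R 4.3.3 fitted all 16 arrays by group, with Benjamini-Hochberg adjustment over 25433 genes and a threshold of 0.05. On simulated data for the 24 h oxygen comparison over those genes, 44% of 100 changes of 0.5 and 84% of 100 changes of 1 (log2) were recovered. No other genes were changed there and the noise was independent between arrays, while 28.3 percent of all genes passed in the data. Recovery in the real comparison can therefore differ. The number of arrays limits the precision.

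The members and lists were chosen with earlier results of these data known. All 43 genes were accounted for, and array values were given for at most the 12 largest rises and falls and, chosen after their values were seen, for Irf7, Isg15, Usp18, Trim25 and Mx1. From each further list up to 6 genes that passed were named, those with the largest change, and the undetected interferons and Ifnar1 were named after their values were seen. Some genes of these lists are counted but not reported by name here.

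At 24 h the replicate numbers paired the gases: residuals of same-numbered arrays correlated at 0.246, 0.344, 0.245 and 0.261, and the number equals the slide column on 16 of 16 arrays. At 6 h replicates 1 to 3 gave 0.251, 0.254 and 0.354 and replicate 4 gave 0.0866, so not every pair was over 0.1 there. Alternatives were other background correction, scaling, filter, probe choice, the authors' table, a replicate block, array weights and leaving out each array.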

Additional observations from a re-analysis of the deposited data

Results flagged for a closer look

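Among 172 checks of 4 arrays for an array far from the other 3, of which chance gives about 1 in 20, there were 4 such arrays. Ifit1 had a level of -3.89 on hyperoxia 6 h replicate 4, with the other 3 between -5.16 and -5.00. Mx2 had -5.68 on normoxia 6 h replicate 1, with the others between -6.79 and -6.65, none well above background. For Oas2, normoxia 6 h replicate 3 had -4.88 and the others -4.45 to -4.38. For Irf7, hyperoxia 24 h replicate 2 had -2.64 and the others -3.03 to -2.99.

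The oxygen effect differed between 24 h and 6 h for 6 genes in limma's test of the difference (24 h less 6 h, log2). The difference was 1.06 for Ifit3 (adjusted p 0.014), 0.81 for Rtp4 (adjusted p 0.028), 0.60 for Samd9l (adjusted p 0.011), 0.57 for Irgm1 (adjusted p 0.0012), 0.50 for Irf9 (adjusted p 0.031) and -0.81 for Herc6 (adjusted p 0.019). Time cannot be told apart from slide in these 6 differences.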

How the results depend on the processing

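Of the recomputed counts and medians over the 43 genes, 268 stayed and 17 moved. Counts that stayed were within 1.5 times, and medians within 0.15, the SD of their median between arrays of a group. Changes of sign were not marked apart, and 0.15 is wider than the 24 h oxygen median of 0.09. The median over time in normoxia was -0.05 in the main fit and 0.16 under median centring. Of the 13 genes that passed at 24 h, 11 did so in 18 of 18 alternatives, and the exceptions were Parp9 and Rtp4. Rtp4 also missed with the arrays of the contrast alone (adjusted p 0.052). With array weights 1 gene was lower at 6 h and, for the difference between times, 8 were higher. Under median centring 17 rose and 7 fell over time in normoxia (median 0.16), and 6 fell in hyperoxia (median 0.37). With normexp and quantile normalization 2 were lower for the difference. The cause was not tested. Dim probes, Mx1, Mx2, Oas3 and Rsad2 above all, limit what can be read.

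With the replicate block within each time, 8 genes were higher for the difference, and with the block over both times 8 were higher and 2 lower. At 24 h either block gave 15 genes in place of 13, and no gene that had passed in an oxygen comparison was lost. Leaving out 1 array gave 0 to 0 higher and 0 to 0 lower at 6 h (median -0.18 to -0.09), and 7 to 9 higher and 5 to 6 lower at 24 h (median 0.03 to 0.12). Over time it gave 11 to 14 higher and 11 to 12 lower in hyperoxia (median 0.10 to 0.20), and 6 to 11 and 9 to 11 in normoxia (median -0.14 to -0.02). For the difference it gave 3 to 7 higher and 1 to 2 lower (median 0.11 to 0.25).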
